A study of Mus musculus with 6 samples.

Results

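The ionotropic GABA and glycine receptors of the retina carry fast inhibition, and 7 genes were followed here in NMDA-damaged retinas with and without SCF. They were chosen by name as a receptor family, with earlier results of these data known: *Gabrr1* and *Gabrr2* (the ρ subunits of GABA receptors), *Glra1*, *Glra2* and *Glra3* (glycine receptor α subunits), *Glrb* (the glycine receptor β subunit) and *Gphn* (gephyrin). Of the 25168 genes tested in the series, 5 were these genes. *Glra1* was listed in 4 of the 6 libraries only, and *Gabrr1* was not analysed here beyond its reference sequence. The retinas came from wild type mice, given in the labels as C57BL/6 at postnatal week 5 and in the study's methods as C57BL/6J. All mice received NMDA, a glutamate receptor agonist, by injection into the vitreous. The 3 libraries of the NMDA + PBS group had PBS injected 2 days later, and the 3 libraries of the NMDA + SCF group had 2 μl of stem cell factor (SCF, the c-kit ligand) at 50 ng/μl. They are numbered below as controls 1, 2 and 3 and SCF libraries 1, 2 and 3. Retinas were taken 1 week after the SCF injection, no uninjured retina was among the libraries, and the number of mice behind a library was not given in the sources used here, so p-values measure only the spread between these libraries, which may be partly technical.

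Both receptor classes are chloride channels built from several subunits around a central pore. The ρ subunits form the slow GABA channels known from bipolar cell terminals, while the glycine receptor α subunits bind glycine and differ between amacrine, bipolar and ganglion cell inputs. The β subunit joins the α subunits and ties the receptor to gephyrin, the scaffold under inhibitory synapses, which is also an enzyme of molybdenum cofactor synthesis.

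The channel subunits differ in the pore itself. The coding sequences of the second transmembrane segment, which lines the channel, are shown to make plain how far apart their transcripts are. Each run is 69 bases of a GENCODE M21 transcript (GRCm38), written 5′ to 3′ and located from its reading frame, with capitals at the bases that differ from *Glra2*.
Glra2: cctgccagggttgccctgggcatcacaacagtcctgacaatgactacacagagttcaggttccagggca
Glra1: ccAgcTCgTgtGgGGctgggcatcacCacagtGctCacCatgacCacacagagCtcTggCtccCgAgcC
Glra3: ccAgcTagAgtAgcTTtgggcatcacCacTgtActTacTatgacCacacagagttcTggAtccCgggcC
Glrb: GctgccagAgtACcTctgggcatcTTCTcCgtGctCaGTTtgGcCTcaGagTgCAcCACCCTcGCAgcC
Gabrr1: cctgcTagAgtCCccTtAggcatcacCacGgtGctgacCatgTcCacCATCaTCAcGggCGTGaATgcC
Gabrr2: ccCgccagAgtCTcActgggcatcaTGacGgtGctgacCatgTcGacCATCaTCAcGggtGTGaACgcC
In *Glra2* this segment lies in exon 7 of 9, on chromosome X from 165252232 to 165252300 on the minus strand. *Glra1* (chromosome 11, 55527267 to 55527335, minus strand) and *Glra3* (chromosome 8, 56089118 to 56089186, plus strand) also hold it in exon 7. In *Glrb* (chromosome 3, 80851151 to 80855803, minus strand), *Gabrr1* (chromosome 4, 33160251 to 33161679, plus strand) and *Gabrr2* (chromosome 4, 33084489 to 33085595, plus strand) an intron interrupts it. Against *Glra2*, *Glra3* was 76.8% and *Glra1* 73.9% identical over these bases, and *Gabrr2* (62.3%), *Gabrr1* (60.9%) and *Glrb* (53.6%) were further away. Over the whole transcripts shown, the longest exact run shared with *Glra2* was 26 bases, in both *Glra1* and *Glra3*.

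How much of each gene could be read depended on the transcripts listed. The values were FPKM (fragments per kilobase of transcript scaled to the mapped fragments of the library), deposited for single transcripts. The files did not all list the same transcripts. List A served control 1 and all NMDA + SCF libraries, and list B served controls 2 and 3, so the list and the treatment cannot be fully told apart. GENCODE M21 holds 20 transcripts of the 7 genes, of which 12 were listed in at least 1 library and 10 in all 6. Gene values are sums over transcripts listed in all 6 libraries. Coding transcripts were 15 of the 20, and 6 of them were in both lists. *Glra2* was covered by its single transcript and *Gphn* by all 3. *Glrb* was read only through a nonsense-mediated decay form and a retained intron, and *Gabrr2* through 2 of its 4 coding transcripts. The FPKM values fell on whole multiples of 1 fragment. The counted fragments numbered 3977122 and 4440595 in controls 2 and 3 (list B) and 3404349 to 3479967 in the list A libraries. The FPKM scaling therefore differed between the lists as well.

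*Glra2* was the only one of the 5 genes with more than 14 fragments in any library. The gene (chromosome X, 165129017 to 165327393, minus strand) measured 19.6, 10.9 and 14.5 FPKM in controls 1, 2 and 3. It had 15.7, 17.8 and 12.9 FPKM in SCF libraries 1, 2 and 3. The highest and the lowest library were both NMDA + PBS, and all NMDA + SCF values lay between them. The means were 15.0 ± 4.35 FPKM in NMDA + PBS and 15.5 ± 2.43 FPKM in NMDA + SCF (SD, n = 3 each). On the log2(FPKM + 1) scale, which all fold changes here share and which understates those of low genes, the fold change was 1.05 with a 95% interval from 0.693 to 1.58 (adjusted p = 0.941, limma with Benjamini-Hochberg adjustment). Any change within that interval is compatible with these values, and no smallest detectable change was computed. The sign of the log2 fold change, 0.07, turned to -0.01 with median-of-ratios scaling to -0.13 without control 2 and to -0.33 when the list entered the fit.

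**Figure D1:**
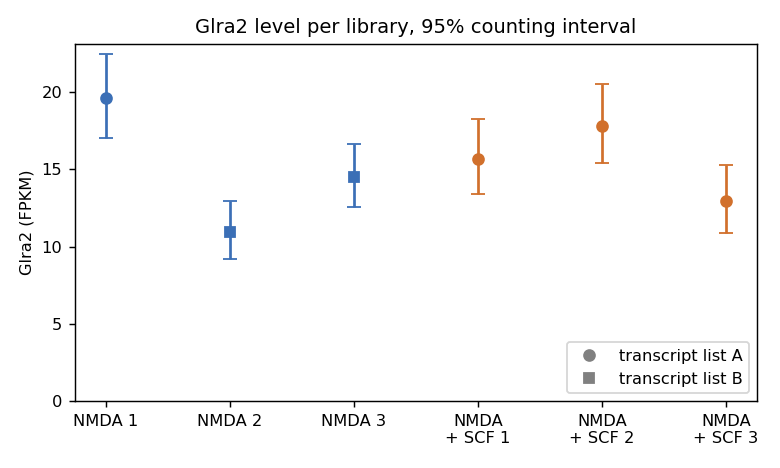
*Glra2* level in FPKM in each library, with NMDA + PBS (marked NMDA) in blue and NMDA + SCF in orange. Bars are exact 95% Poisson intervals of the fragment count, circles mark transcript list A and squares list B. Control 1 (19.6 FPKM) and control 2 (10.9 FPKM) enclose the 3 NMDA + SCF libraries.

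The *Glra2* values rested on 210, 137 and 203 fragments in controls 1, 2 and 3 and on 169, 195 and 141 fragments in SCF libraries 1, 2 and 3. The exact 95% Poisson intervals were 17.0 to 22.4 FPKM in control 1 and 9.18 to 12.9 FPKM in control 2, so these did not overlap. In the NMDA + SCF group the intervals of libraries 2 (15.4 to 20.5 FPKM) and 3 (10.9 to 15.3 FPKM) did not overlap either. These intervals cover counting error only. The coefficient of variation between libraries was 28.9% in NMDA + PBS, where counting alone gives 7.39%, and 15.7% in NMDA + SCF, where it gives 7.71%. Among the list A libraries alone, the single control library stood above all 3 NMDA + SCF libraries.

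*Gphn*, on chromosome 12 from 78226379 to 78684772, came second in level. It had 2.58, 2.15 and 1.32 FPKM in controls 1, 2 and 3, and 2.82, 1.78 and 4.76 FPKM in SCF libraries 1, 2 and 3. The groups overlapped, and SCF library 3 was the highest. The means were 2.02 ± 0.639 FPKM in NMDA + PBS and 3.12 ± 1.51 FPKM in NMDA + SCF (SD, n = 3 each). The log2 fold change was 0.41 (SE 0.38, adjusted p = 0.707, limma), with a 95% interval of the fold from 0.719 to 2.45. With limma-voom it was 0.12, with a list term 0.14 and without SCF library 3 it was 0.13. These values rested on between 3 and 14 fragments per library.

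Most of the *Gphn* value came from a form that does not make gephyrin. A retained-intron transcript of 484 bases, at the 3′ end of the gene (78682647 to 78684093), held 85.7% of the mean FPKM, and 23 of the 51 fragments, because FPKM divides by length. The longer coding transcript (3570 bases) held 10.7% of the mean FPKM and 21 fragments. It had 6, 1 and 3 fragments in controls 1, 2 and 3 and 5, 0 and 6 fragments in SCF libraries 1, 2 and 3. The other coding transcript had at most 3 fragments in a library. None of these 3 forms separated the groups.

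*Gabrr2*, the ρ subunit gene on chromosome 4 (33062999 to 33095865), had 1.39, 1.30 and 1.13 FPKM in controls 1, 2 and 3. It had 1.38, 0.848 and 0.810 FPKM in SCF libraries 1, 2 and 3. SCF libraries 2 and 3 lay below all controls, and SCF library 1 lay among them. The means were 1.27 ± 0.130 FPKM and 1.01 ± 0.317 FPKM (SD, n = 3 each), and the log2 fold change was -0.19 (SE 0.29, adjusted p = 0.826, limma). With limma-voom on recovered fragments it was -0.83 (adjusted p = 0.621) and with a pseudocount of 0.1 it was -0.34. The 95% interval of the fold ran from 0.552 to 1.40. Behind these values were 4, 10 and 8 fragments in controls 1, 2 and 3 and 4, 4 and 2 fragments in SCF libraries 1, 2 and 3.

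The 2 *Gabrr2* transcripts did not share a pattern. The long one (1933 bases) had 1, 10 and 7 fragments in controls 1, 2 and 3 and 1, 3 and 0 in SCF libraries 1, 2 and 3, so the libraries with list B were the highest. The short one (714 bases) had 3, 0 and 1 fragments in controls 1, 2 and 3 and 3, 1 and 2 in SCF libraries 1, 2 and 3, and held 58.2% of the mean FPKM. Both list B libraries had more fragments of the long form than any list A library, and control 1 had the same single fragment as SCF library 1.

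*Glrb* (chromosome 3, 80843599 to 80913660) and *Glra3* (chromosome 8, 55940460 to 56130070) were at the edge of detection, and no fold is given for either, since fewer than 2 libraries of each group exceeded a floor of 3 fragments. *Glrb* was listed at 0 in control 1 and had 1.22 and 0.539 FPKM in controls 2 and 3. It was also listed at 0 in SCF library 1, and had 2.91 and 0.357 FPKM in libraries 2 and 3. The highest value was 7 fragments, of which 5 came from the nonsense-mediated decay form. A coding *Glrb* transcript of 1101 bases, in list B only, was listed at 0 in both of its libraries, where 3 fragments would have been 0.614 to 0.685 FPKM.

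*Glra3* had 0.0819, 0.140 and 0.383 FPKM in controls 1, 2 and 3. It was listed at 0 in SCF libraries 1 and 3 and had 0.0801 FPKM in library 2. All control values were above all treated values, over 1, 2 and 7 fragments against 0, 1 and 0. Of all genes, 6.45% were lower in NMDA + SCF without overlap and 14.1% did not overlap in either direction. Of the 5 genes, *Glra3* was the only one whose groups did not overlap in FPKM. By fragments the groups met, since control 1 and SCF library 2 had 1 fragment each. Only the scaling to the library set these 2 values apart. Its 2 highest libraries were those with transcript list B. The unadjusted p was 0.114 in limma on FPKM and 0.0354 in limma-voom on recovered fragments (adjusted p = 0.572 and 0.453). Only 2 of its 11 fragments, both in control 3, were of the coding transcript of 6508 bases, and the other 9 were of a processed transcript.

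*Glra1* (chromosome 11, 55514238 to 55608198), which encodes the adult α subunit of spinal glycine receptors, had 1 of its 3 coding transcripts in list A and none in list B. That transcript had 1 fragment, in SCF library 2 (0.141 FPKM), and was listed at 0 in the other 3 list A libraries, where 3 fragments would have been 0.423 to 0.433 FPKM. This says nothing of the forms that were not listed.

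**Figure D2:**
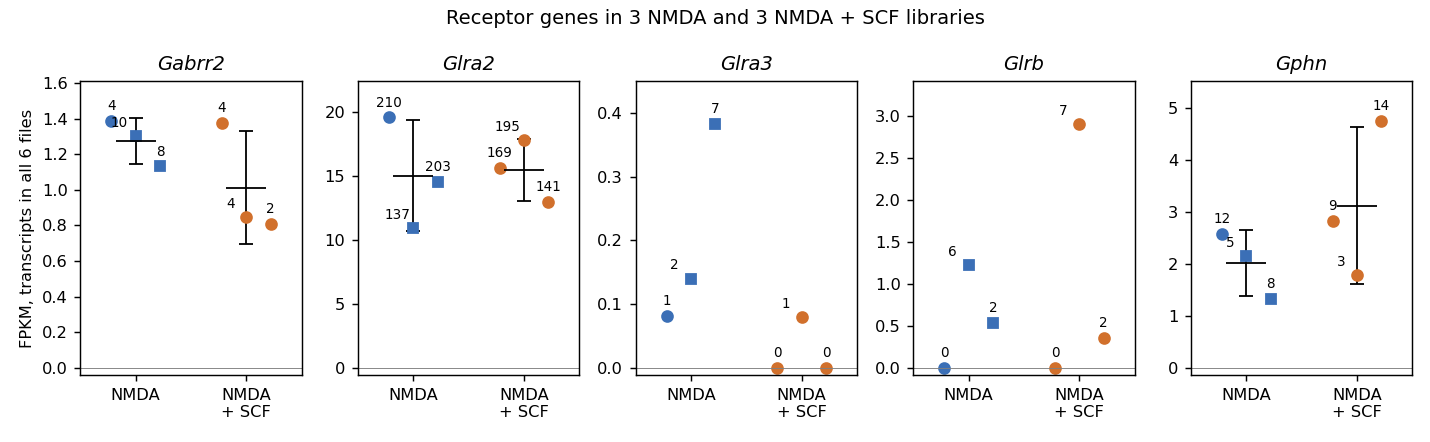
FPKM of the 5 genes in NMDA + PBS (NMDA, blue) and NMDA + SCF (orange) libraries, with the number of fragments beside each point. Circles mark transcript list A and squares list B, and the cross-bars give mean and SD (n = 3) for the 3 genes with enough fragments. *Glra2* alone has over 100 fragments in every library.

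No gene of the family passed the test between groups. With both a 2-fold difference and an adjusted p of 0.001 or less required in limma, 0 of the 5 genes were called, beside 0% of all 25168 genes. At an adjusted p of 0.05 it was also 0 of 5, and 0% of all genes, and limma-voom gave 0 of 5 at either threshold. Over all genes, limma-voom on recovered fragments called 0 genes, with 2 at an adjusted p of 0.05 and 2609 at an unadjusted p of 0.05, where limma had 2325. At an unadjusted p of 0.05, 0 of the 5 genes passed by limma and 1 (*Glra3*) by limma-voom, where limma passed 9.24% of all genes. Of the 10 single transcripts, 0 were called and 0 had an unadjusted p of at most 0.05 (limma), which 7.98% of all 45261 transcripts had. The median log2 fold change of the 5 genes was 0.07, which is the value of *Glra2*, beside -0.01 for all genes. It was 0.07 for genes with a mean of at least 1 FPKM. *Glrb* and *Glra3*, for which no fold is given, are among the 5. With median-of-ratios scaling the median was -0.0086, beside -0.036 for all genes.

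The order of the levels, per length, was *Glra2*, *Gphn*, *Gabrr2*, *Glrb* and *Glra3*. Each of the 4 neighbouring pairs was compared within libraries on log2(FPKM + 1) with a two-sided exact sign-flip permutation test. The order was taken from the mean FPKM of these same 6 libraries, so the direction of a pair was not open. The p-values of these pairs are therefore descriptive only. *Glra2* stood above *Gphn* in 6 of 6 libraries, by 2.22 ± 0.57 on that scale (SD, n = 6). *Gphn* stood above *Gabrr2* in 6 of 6, by 0.68 ± 0.52. Both exact p values were 0.0312, the smallest this design can give, and 0.0625 after adjustment over the 4 pairs, so neither passed 0.05. *Gabrr2* exceeded *Glrb* in 5 of 6 libraries (exact permutation p = 0.281) and *Glrb* exceeded *Glra3* in 4 of 6 (exact permutation p = 0.125), and these neighbours could not be told apart beyond their spread. Since the *Glrb* sum lacks its coding forms, its place is that of the listed transcripts only. The place of *Gphn* is mostly that of its retained-intron form, which held 85.7% of its mean FPKM. The coding transcripts of *Gphn* averaged 0.275 and 0.0932 FPKM, beside 1.14 FPKM for *Gabrr2*, and each lay below *Gabrr2* in every library.

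Of the α subunits followed with a value in every library, *Glra2* made up nearly the whole sum. Its part of the summed *Glra2* and *Glra3* FPKM was 99.6, 98.7 and 97.4% in controls 1, 2 and 3 and 100, 99.6 and 100% in SCF libraries 1, 2 and 3. The difference between groups did not pass a two-sided exact permutation test (p = 0.2, adjusted p = 0.4 over the 2 shares compared, where 3 libraries against 3 allow no p below 0.1). *Glra4*, outside the followed genes and outside this sum, had 0.321, 1.40 and 1.48 FPKM in controls 1, 2 and 3 and 2.22, 0.528 and 0.474 FPKM in SCF libraries 1, 2 and 3, and the *Glra1* forms not listed do not enter it either. The ratio of *Glrb* to the summed *Glra2* and *Glra3* was at most 0.163, in SCF library 2, and its group difference had an exact permutation p of 0.9. A share of *Gabrr1* among the ρ subunits, and a ratio of *Gphn* to *Glrb*, which was 0 in 1 library of each group, could not be given.

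Set among the 22 GABA and glycine receptor subunits that are reported here, *Glra2* ranked the fourth by mean FPKM. Above it were *Gabra3* (21.9 FPKM), a GABA-A receptor subunit, *Gabbr2* (17.0 FPKM), a subunit of the metabotropic GABA-B receptor, and *Gabrr3* (16.4 FPKM), the remaining ρ subunit. *Glra2* averaged 15.2 FPKM over the 6 libraries, above 87.1% of all genes. The order was not the same in each library. *Gabrr3* lay below *Glra2* in controls 2 and 3, and *Gabbr2* lay below it in control 1. *Gabbr1* lay above *Glra2* in control 2, and *Gabrb2* lay above it in control 3. *Gabrr2* ranked 14, *Glrb* 16 and *Glra3* 19, and *Glra4*, a further glycine receptor subunit, ranked 15 with 1.07 FPKM. These are ranks of the transcripts listed in all 6 libraries, which for *Glrb* include no coding form. They may differ from the ranks of whole genes.

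**Figure D3:**
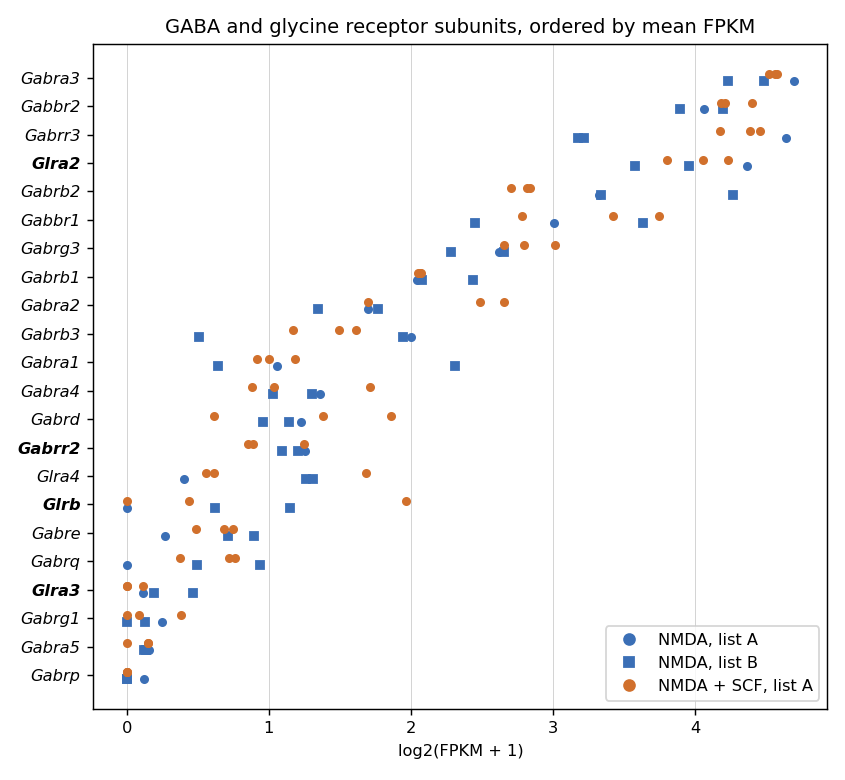
Level of 22 GABA and glycine receptor subunits in each library, as log2(FPKM + 1), with controls (NMDA) in blue and NMDA + SCF in orange, circles for transcript list A and squares for list B, ordered by mean FPKM, with members of the followed family in bold. *Glra2* lies the fourth from the top, and *Gabrr2*, *Glrb* and *Glra3* lie in the lower part of the order. Levels are sums over the transcripts listed in every library, which can leave out forms of a gene.

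*Gabrr3* was lowest in the libraries of transcript list B. It had 23.9, 8.05 and 8.30 FPKM in controls 1, 2 and 3, and 19.9, 20.997 and 17.1 FPKM in SCF libraries 1, 2 and 3. Both list B libraries lay below all 4 list A libraries, and the list A control was the highest of all. Its log2 fold change of 0.66 (SE 0.40, adjusted p = 0.602, limma) became -0.30 with the list as a term. Of all genes, 10.9% had both list B libraries below all list A libraries and 14.4% had them above. Of the 40 other pathway genes, 12 had them below and 3 above. Of the 5 family genes, 0 had them below and 1 (*Glra3*) above. *Lhfpl4*, an auxiliary protein of GABA-A receptors, was the extreme, with 134.8, 3.41 and 1.73 FPKM in controls 1, 2 and 3 and 140.8, 124.5 and 130.6 FPKM in SCF libraries 1, 2 and 3. It alone of the pathway genes was called without control 1, when all controls have list B (log2 fold change 5.26, adjusted p = 1.73e-04, limma).

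The other genes of inhibitory transmission reported here were 45 in 6 lists, and 40 of them had a value in all 6 libraries. None was called (0 of 40, limma and limma-voom, beside 0% of all genes), and the smallest adjusted p was 0.535. At an unadjusted p of 0.05 in limma, 3 were higher (*Lhfpl4*, *Clptm1* and *Slc32a1*) and 1 was lower (*Gabrb2*), where 4.33% of all genes were higher and 4.91% lower. With limma-voom 8 of the 40 passed, beside 2609 of all 25139 genes. The median log2 fold change was 0.13 over the 40 genes, beside -0.01 over all genes. Over the genes with a mean of at least 1 FPKM it was 0.07.

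Without overlap between groups, 7 of the 40 genes were higher with SCF and 2 were lower, beside 7.62% and 6.45% of all genes. With median-of-ratios scaling it was 4 genes (*Gabrb2*, *Slitrk3*, *Clptm1* and *Gldc*), all among the 9. In 5 of the 7 higher genes (*Clptm1*, *Mocs1*, *Mocs3*, *Abat* and *Slc32a1*) the list B libraries were also the lowest of all. With a list term, where control 1 is the single control, the log2 fold change of *Mocs3* went from 0.81 to 0.19, that of *Slc32a1* from 0.48 to 0.16, that of *Abat* from 0.30 to 0.18, that of *Mocs1* from 0.42 to 0.24 and that of *Clptm1* from 0.73 to 0.48. Of the 9, 3 handle the transmitter. *Slc32a1*, which loads GABA and glycine into vesicles, had 125.9, 92.9 and 87.4 FPKM in controls 1, 2 and 3 and 148.2, 136.5 and 137.4 FPKM in SCF libraries 1, 2 and 3 (log2 fold change 0.48, adjusted p = 0.535, limma). *Gldc*, of the glycine cleavage system, had 56.7, 72.5 and 51.4 FPKM in controls 1, 2 and 3 and 80.0, 77.3 and 81.9 FPKM in SCF libraries 1, 2 and 3. Both were higher in every treated library. *Abat*, which breaks down GABA, had 48.6 to 56.8 FPKM in NMDA + PBS and 61.6 to 67.3 FPKM in NMDA + SCF. *Slc6a11*, a GABA transporter and the most abundant gene of that list, overlapped between groups.

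Among the GABA-A subunits the differences went both ways. *Gabrb2* had 9.01, 9.14 and 18.2 FPKM in controls 1, 2 and 3 and 6.15, 6.05 and 5.51 FPKM in SCF libraries 1, 2 and 3 (log2 fold change -0.86, SE 0.30, adjusted p = 0.535, limma). Both list B libraries lay above every list A library. With a list term, where control 1 is the single control, the log2 fold change of *Gabrb2* was -0.54. *Gabrg3* had 3.87 to 5.29 FPKM in NMDA + PBS and 5.31 to 7.08 FPKM in NMDA + SCF (adjusted p = 0.688, limma), and its groups overlapped with median-of-ratios scaling. *Gabra3* overlapped, as did *Gabbr1* and *Gabbr2*. Of the 15 GABA-A subunits in the list with a value, 8 had a positive and 7 a negative log2 fold change, with a median of 0.01.

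In the scaffold and trafficking list, *Slitrk3*, an adhesion protein of inhibitory synapses, was lower without overlap (3.87 to 4.94 FPKM against 2.39 to 3.01 FPKM). *Clptm1*, which holds GABA-A receptors back in the endoplasmic reticulum, was higher (3.45 to 5.02 FPKM against 6.88 to 8.03 FPKM), but only forms that do not code for the protein were in both lists. *Gabarapl1* and *Trak1*, which take part in receptor traffic, overlapped. Of the genes that make molybdenum cofactor with gephyrin, *Mocs1* and *Mocs3* were higher without overlap and *Mocs2* was not. *Mocs3* had 38.9, 28.8 and 13.6 FPKM in controls 1, 2 and 3 and 46.4, 42.7 and 44.3 FPKM in SCF libraries 1, 2 and 3, and no library had more than 9 fragments of *Mocs1*. None of these genes passed an adjusted p of 0.05 (limma).

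**Figure D4:**
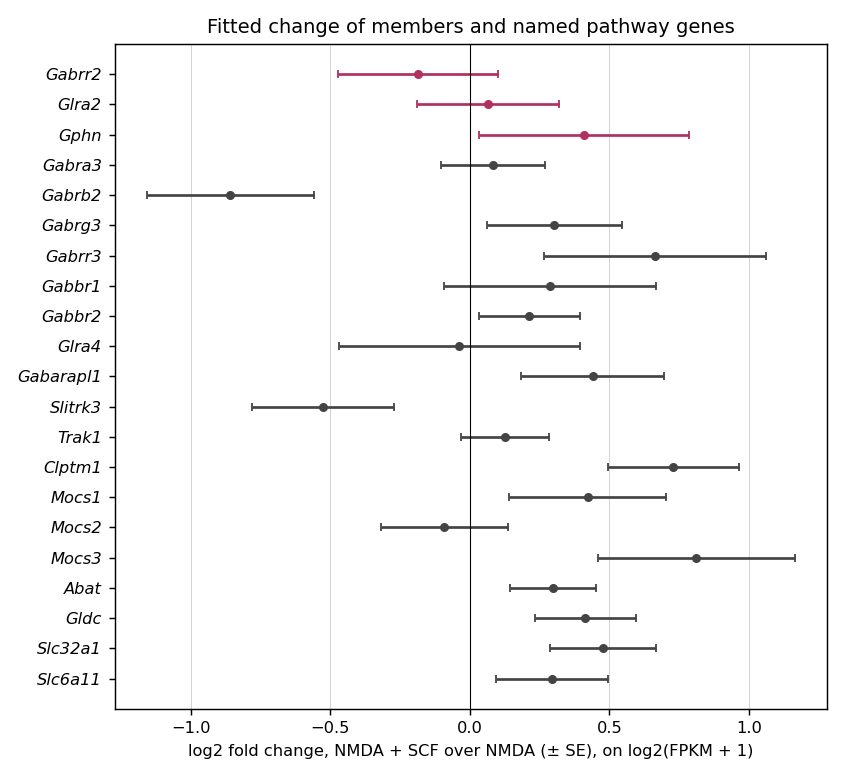
Log2 fold change of NMDA + SCF over NMDA + PBS with its standard error, for *Gabrr2*, *Glra2* and *Gphn* (red) and 18 other named pathway genes (dark grey), fitted with limma on log2(FPKM + 1). *Lhfpl4* is left out of the plot for scale, and *Gabrb2* (-0.86) and *Mocs3* (0.81) lie furthest from 0.

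Retinal markers were present in every library, and the summed lens markers differed between the groups. The summed FPKM of 10 rod markers was 5911 to 8432 in NMDA + PBS and 7021 to 8091 in NMDA + SCF. The marker sums of the cell types known to carry these receptors overlapped between groups. The sum was 213.8 to 305.5 and 255.0 to 262.8 FPKM for 6 of 9 rod bipolar markers, 127.9 to 194.1 and 120.8 to 182.6 FPKM for 7 of 8 amacrine markers, and 228.7 to 466.2 and 262.2 to 319.9 FPKM for 9 of 10 ganglion cell markers, which had a value. The ganglion cell marker *Pou4f1* and the amacrine marker *Th* were not in both lists, *Cacng5* (cone bipolar) and *Gja10* (horizontal) were at 0 in every library, and the other retinal and glial sums also overlapped. In bulk retina, fewer cells of a type and less RNA per cell cannot be told apart. For 8 of 9 lens markers the sum was 19.7 to 177.4 FPKM in NMDA + PBS. It was 3943, 388.5 and 7297 FPKM in SCF libraries 1, 2 and 3, where *Crygs* alone had 3273, 354.3 and 6280 FPKM. Of these 8 markers, 6 were higher with SCF without overlap, beside 7.62% of all genes, and *Cryaa* and *Mip* overlapped. For 4 markers of ciliary body and iris the sum was 8.96 to 9.84 FPKM in NMDA + PBS and 16.7 to 22.4 FPKM in NMDA + SCF. The part of such tissue in the pathway values was not tested.

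Genes with the most similar profile over the 6 libraries are given as a description, among 14003 genes with a mean of at least 1 FPKM. For *Glra2* it was *Tsg101-ps*, a pseudogene (Pearson r = 0.978), and 13 genes had an r over 0.95. For *Gphn* it was *Coq7* (r = 0.987), for *Gabrr2* *mt-Nd3* (r = 0.984), for *Glrb* *Cxadr* (r = 0.998) and for *Glra3* the transcript *AC154640.3* (r = 0.997). All pairs share the same 6 libraries and their depth, and the members other than *Glra2* rest on few fragments.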

How the data were processed

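RNA-seq of 6 retinal libraries (3 NMDA + PBS, 3 NMDA + SCF) was analysed from the processed files. Groups and replicate numbers were taken from the sample titles, and PBS as the control injection from the study's methods. The authors selected polyadenylated RNA, sequenced it on an Illumina platform and deposited FPKM per transcript. The aligner and counter were not given in the sources used here. The submitters' processing notes name mm9, while 98.2% of the 63313 Ensembl transcripts found in GENCODE M21 had the same position there, so coordinates are those of GRCm38. A table of library totals gave the clean reads, and its 6 other value columns were not used. Clean reads ranged from 44925938 to 48783182 per library.

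Gene values are FPKM sums over those of 46933 Ensembl transcripts, shared by all 6 files, that carry the gene's symbol. Transcripts without a gene name, which held 8.85 to 11.4% of the FPKM of a library, were left out. Multiplied by length, 99.9% of values were whole numbers of fragments (tolerance 0.05 fragments, or the last digit of the value), and these fragments served for depth, floors of 3 fragments and limma-voom. The counted fragments were 14.1 to 15.2% of the clean read pairs in list A libraries and 16.9 and 18.2% in controls 2 and 3. Floors refer to counted fragments only.

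Groups were compared with limma 3.58.1 (R 4.3.3, variance trend) on log2(FPKM + 1), which understates changes of low genes, with Benjamini-Hochberg adjustment over all genes above 0 in at least 1 library. A call needed a 2-fold difference and an adjusted p no higher than 0.001, the thresholds of the study's methods. The study reported differentially expressed genes at these thresholds, and its methods do not name the test. Its procedure was not repeated, so the absence of calls here is no match to its result. Single values were compared with exact permutation tests (Python 3.11.15), over 4 neighbour pairs in the order of levels because *Gabrr1* and *Glra1* had no value in all libraries. The genes named are the 7 members, the 3 most abundant genes of each list, those without overlap between groups or with an unadjusted p of at most 0.05, the gene most like each member, and *Glra4*. A fold is given where at least 2 libraries of each group exceed the floor, a rule set after the values were seen. The members and lists were chosen with earlier results of these data known. Some genes of the lists are not reported here and enter no list count. Alternatives were other scalings, a pseudocount of 0.1, a filter at a mean of 1 FPKM, all listed transcripts, the list as a term, a replicate block, limma-voom and each library left out.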

Additional observations from a re-analysis of the deposited data

How the results depend on the processing

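The number of receptor genes called was 0 under each of the 15 alternatives and at both other thresholds, and the smallest adjusted p of any of them was 0.329 (limma). Over all genes, 0 calls became 192 without control 1 (range over the 6 fits without 1 library 0 to 192) and 2325 at an unadjusted p of 0.05, and among pathway genes 0 became 1, *Lhfpl4*, without control 1 (range 0 to 1). In those fits all remaining controls have transcript list B. The log2 fold change of *Glra2* (0.07) changed sign to -0.0086 with median-of-ratios scaling, -0.0024 with values rescaled to 1 common total, -0.33 with a list term, where control 1 is the single control, and -0.13 and -0.04 without control 2 and SCF library 2. The cause was not tested. It ranged from -0.13 to 0.26 without 1 library, that of *Gphn* from 0.13 to 0.66 and that of *Gabrr2* from -0.31 to -0.11. The 9 pathway genes without overlap became 4 with median-of-ratios scaling and 10 by fragments scaled to library totals, of which 7 were among the 9, both added after the data were seen. The replicate block left 0 calls, with 1856 genes at an unadjusted p of 0.05 in place of 2325. Same-numbered libraries did not deviate together (correlations from -0.08 to -0.05 across genes, beside 0.01 to 0.05 for differently numbered ones), and the numbers were not taken as pairs. Deviations from the means of such small groups cannot exclude a pairing. With the replicate block the log2 fold change of *Glra2* was 0.07. The filter at a mean of 1 FPKM gave no value for *Glra3* and *Glrb*, and planned shares of *Glra1* and *Gabrr1* and the ratio of *Gphn* to *Glrb* could not be given. Without 1 library, 2 to 3 neighbour pairs kept 1 direction in every library, and the difference in the *Glra2* share lay between 0.692 and 1.77 percentage points and that in the ratio of *Glrb* to summed *Glra2* and *Glra3* between -0.0351 and 0.0463. The genes other than *Glra2* have at most 14 fragments in a library. The log2 fold change of *Gabrr2* lay at -0.83 and that of *Gphn* at 0.12 with limma-voom.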
